A study of Homo sapiens with 9 samples.

Results

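The proteasome genes described here are those that encode subunits, activators, the inhibitor and the assembly factors of the proteasome, chosen by symbol: PSMA to PSMG followed by a digit. Of the 14943 genes in the deposited table, 48 symbols matched. The count includes 3 that name no proteasome part, the pseudogene PSMC1P1, PSMC3IP and PSME3IP1, which were set apart, so that 45 genes remained. PSMA8, PSMB9 and PSMB11 were not analysed here. SH-Sy5y cells, a human neuroblastoma line with sympathetic neuron features, were transfected for 48 h with 3 mixtures of short RNA, in 3 replicates each, and polyadenylated RNA was sequenced. The Ctrl. group received 40 pmol of a negative control oligonucleotide. The 10 nM group received 20 pmol of a mimic of miR-1229-3p and 20 pmol of the negative control, and the 20 nM group received 40 pmol of the mimic and none of the negative control. Any difference between these groups, and any trend over dose, therefore contrasts more mimic and less control oligonucleotide at once, and the 2 cannot be told apart. All 9 libraries came from 1 cell line, RNA of 2 wells was pooled where possible, and p-values measure only the spread between these libraries, which may be technical.

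The proteasome is the large protease that degrades proteins marked with ubiquitin in the cytosol and nucleus. Rings of alpha and beta subunits form its hollow core particle, whose catalytic beta subunits cut peptide bonds inside the chamber, while the regulatory particle, built of a base with ATPases and a lid, binds ubiquitin chains, removes them, unfolds the substrate and feeds it into the core. Other activators can cap the core in its place, inducible beta subunits can replace the constitutive catalytic ones, and dedicated chaperones guide assembly. In neurons, the proteasome is known for its part in synaptic protein turnover.

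The transfected microRNA and the 4 strongest matches to its seed in these genes are shown first, since a match in a 3′ UTR is how a microRNA finds its targets. The RefSeq mature sequence (GRCh38.p14, chr5:179798278-179798300, minus strand) has its seed, bases 2 to 8, in capitals.
hsa-miR-1229-3p: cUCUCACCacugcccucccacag
The matches below come from GENCODE 44 (GRCh38.p14) 3′ UTRs, with the bases that pair with the seed, and any A that follows them, in capitals.
PSMD8: gagtacgattGGTGAGAAaagagagcat
PSMF1, base 6032 of its 3′ UTR: tcaggacttgtGTGAGAAaggagtgatg
PSMF1, base 6838 of its 3′ UTR: cagaaatttgaGTGAGAAgcatgtgaag
PSMG4: gagtggcagaaGTGAGAAtttgtaaact
A match of 7 or 8 bases was found in 3 of the 44 proteasome genes with a 3′ UTR of at least 50 bases, or 6.82%, against 22.6% of the 13657 genes of the table with such a 3′ UTR. The median length of the longest 3′ UTR was 477.5 bases for the proteasome genes and 1556 bases for all genes. The only 8-mer, in PSMD8, lies in a longer 3′ UTR that the reference transcript (MANE) of the gene does not have. Of the 7 proteasome genes past the threshold in the main fit to all libraries (PSMB4, PSMB6, PSMD3, PSMD6, PSMD7, PSME2 and PSME4), none held even a 6-base match, although PSME2, whose reference 3′ UTR has 44 bases, was too short to be counted among the 44. PSMD8 passed with all libraries at 20 nM with 2 surrogate variables (explained below) and in the dose trend with 3. It also passed in fits that left out a library, and those without 20 nM replicate 3 are given at the end. Of the genes with a match of 7 or 8 bases, PSMD8 was 1.11 times its Ctrl. level at 20 nM (log2 0.15, SE 0.05, adjusted p = 0.0808 in edgeR's quasi-likelihood test), PSMF1 had a log2 fold change of -0.04 (SE 0.05) and PSMG4 of -0.15 (SE 0.13, 95% interval -0.44 to 0.14).

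The libraries held 17423969 to 28192775 estimated counts, and the proteasome genes reached 190 to 9841 counts per library, apart from PSMB8 with 26 to 78. The 20 nM replicate 3 library stood apart from the rest: on the first principal component (30.4% of the variance of all genes) it lay at 47.4, with the other libraries between -17.1 and 7.72. Results are therefore also given without it. The 7 sympathetic neuroblastoma markers reported here were all listed, among them HAND2 at 1054 to 1259 CPM and ISL1 at 167 to 238 CPM, with TH near 0 at 0.122 to 0.914 CPM. Their summed share of counts was 0.405 to 0.422% in Ctrl., 0.431 to 0.447% at 10 nM and 0.42 to 0.455% at 20 nM. At 20 nM, 2 of the 7 fell (ISL1 and TH). The TH call (adjusted p = 0.0462 in edgeR's quasi-likelihood test) was lost with 2 surrogate variables (0.117) and without any Ctrl. replicate (0.0735 to 0.108), among others. That of ISL1 (0.00717) was lost without 20 nM replicate 2 (0.0512). Of 6 markers of mesenchymal cells, the 5 analysed had a summed share of 0.0469 to 0.0534%, 0.0503 to 0.0557% and 0.0553 to 0.0719% in the same order, most of it from TWIST1 at 386 to 692 CPM. At 20 nM, 1 of the 5 passed, LUM with a log2 fold change of 0.56 (SE 0.12, adjusted p = 0.00969), which was -0.01 in a fit with a replicate block and no surrogate variables. In 20 nM replicate 3, LUM had 14.5 CPM, below the 26.5 to 36.7 of the Ctrl. libraries. Of the 5 mesenchymal markers, 4 had fitted values above 0 at 20 nM, with a median over the 5 of 0.48 and a highest value of 0.63. COL1A1 had a value of -0.15 (SE 0.12), and in the trend over dose LUM (0.29, adjusted p = 0.0413) and TWIST1 (0.23, adjusted p = 0.0289) passed. The part of these marker changes in the values below was not tested.

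In Ctrl. cells, by the median of each class, the core subunits were the most abundant proteasome transcripts and the inducible subunits the least, while single genes of different classes overlapped. Levels between genes are given as CPM, counts scaled to a common library total, per kilobase of the reference transcript. The 14 constitutive core genes had a median level of 93.8, from 12.6 for PSMA5 to 316 for PSMB4, a ratio of 25.2. The 17 genes of the regulatory particle had a median of 50.9, from 21.3 for PSMD12 to 159 for PSMD4. PSMB4, at 316 ± 8.12 (SD, n = 3), led PSMA7 at 225 ± 8.37, and both were above PSMD4 at 159 ± 4.26 and PSMC5 at 159 ± 8.74, which did not differ beyond their spread. The assembly chaperones were lower, from 10.3 to 20.2 for those of the base and from 9.28 (PSMG1) to 31.7 for those of the core. The activators PSME1, PSME2 and PSME3 lay between 56.4 and 68.0, and PSME4 at 15.4. The inhibitor PSMF1 was at 11.2. PSMB10 reached 10.2 and PSMB8 1.86. The 3 lowest core genes, PSMA5, PSMB2 and PSMA4, have reference transcripts of 3815 to 4426 bases and the other 11 of 762 to 1434 bases. Whether shorter transcripts carried the counts was not tested.

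**Figure D1:**
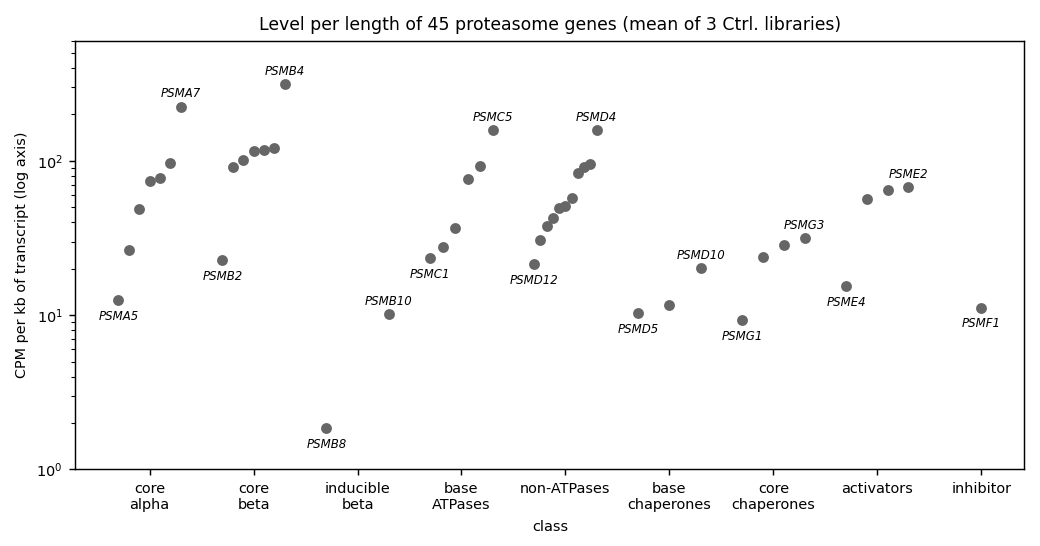
Level of 45 proteasome genes in Ctrl. cells, as CPM per kilobase of the reference transcript on a log axis, by class; each point is the mean of 3 libraries, and the lowest and highest gene of a class are named. Core subunits reach the highest level (PSMB4, 316), and the inducible PSMB8 the lowest (1.86).

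The first question was how the proteasome genes differed from Ctrl. at each concentration of the mimic. At 10 nM no proteasome gene passed the test against Ctrl., at 20 nM PSME2 and PSMD7 rose and PSME4 fell, and a linear trend over 0, 10 and 20 nM held 6 rising genes (PSMB4, PSMB6, PSMD3, PSMD6, PSMD7 and PSME2) and 1 falling gene (PSME4). The changes were small: at 20 nM the genes past the threshold were at 1.17 (PSME2), 1.14 (PSMD7) and 0.887 (PSME4) times their Ctrl. level. Summed, the 45 genes took 0.449%, 0.457% and 0.470% of the counts of the Ctrl. libraries. Their share was 0.456%, 0.470% and 0.482% in the 10 nM libraries and 0.470%, 0.483% and 0.518% in the 20 nM libraries. The share was lowest in replicate 1 of every group, and within each replicate number it rose from Ctrl. to 10 nM and to 20 nM. The groups overlapped, Ctrl. with 20 nM only by Ctrl. replicate 3 and 20 nM replicate 1 (0.470% each). In summed CPM, Ctrl. had 4470 to 4642 and 20 nM had 4707 to 5388. The order within replicate numbers was not tested. In bulk RNA, fewer cells and less RNA per cell cannot be told apart.

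With all libraries and both directions together, the share of proteasome genes past the threshold was below that of all genes in each comparison. In the 10 nM comparison 0 of 45 passed an adjusted p of 0.05 (edgeR's quasi-likelihood test, Benjamini-Hochberg over all genes), beside 0.649% of all genes. DESeq2 also called 0, beside 2.63% of the genes to which it gave an adjusted p. In edgeR, 3 had an unadjusted p under 0.05 (PSMA5, PSMD8 and PSME4), or 6.67%, beside 13.9% of all genes. At 20 nM, 2 of 45 were higher and 1 lower, with 7.8% of all genes higher and 6.08% lower. DESeq2 called the same 3 genes and PSMB1 (0.23, adjusted p = 0.0447), beside 14.8% of the genes to which it gave an adjusted p. In the fit with a replicate block and no surrogate variables 5 passed, the same 3 with PSMB6 (0.26, adjusted p = 0.0489) and PSMD6 (0.26, adjusted p = 0.0488), beside 13.6% of all genes. In the dose trend, fold changes of which are per 20 nM, 6 of 45 (13.3%) were higher and 1 lower, with 9.84% and 7.69% of all genes, a difference in the upward share that was not tested. Between 20 nM and 10 nM, 0 of 45 passed, beside 2.79% of all genes. DESeq2 called 0 here, beside 3.83% of the genes to which it gave an adjusted p. In edgeR, 2 had an unadjusted p under 0.05 (PSMD6 and PSME2), beside 14.9% of all genes. The 3 comparisons with Ctrl. share its libraries, so that they are not separate evidence for a gene.

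The fitted values of the 45 genes leaned upwards by little. Their median log2 fold change was 0.02 at 10 nM, 0.07 at 20 nM, 0.04 from 10 to 20 nM and 0.07 in the dose trend, with the median of all genes at 0.00 in each, and 34, 34, 33 and 40 of the 45 were above 0. In CPM, the 20 nM libraries were all above the Ctrl. libraries for 14 of 45 genes and all below for 1 (PSME4), where 15.2% and 13.7% of all genes did the same. At 10 nM, 7 of 45 were above and 1 (PSME4) below, with 10.1% and 9.9% of all genes. At both concentrations the upward share of the proteasome genes was above that of all genes and the downward share below it. These differences were not tested. The medians were not stable to 1 library: that at 10 nM was 0.0348 without Ctrl. replicate 3 and 0.0473 without 10 nM replicate 1, that from 10 to 20 nM was 0.0161 without 20 nM replicate 2, and that of the dose trend was 0.13 without 20 nM replicate 1. The median was 0.042 at 10 nM and 0.14 at 20 nM when the fit left out the surrogate variables, covariates estimated from the data for differences between libraries that the groups leave unexplained.

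**Figure D2:**
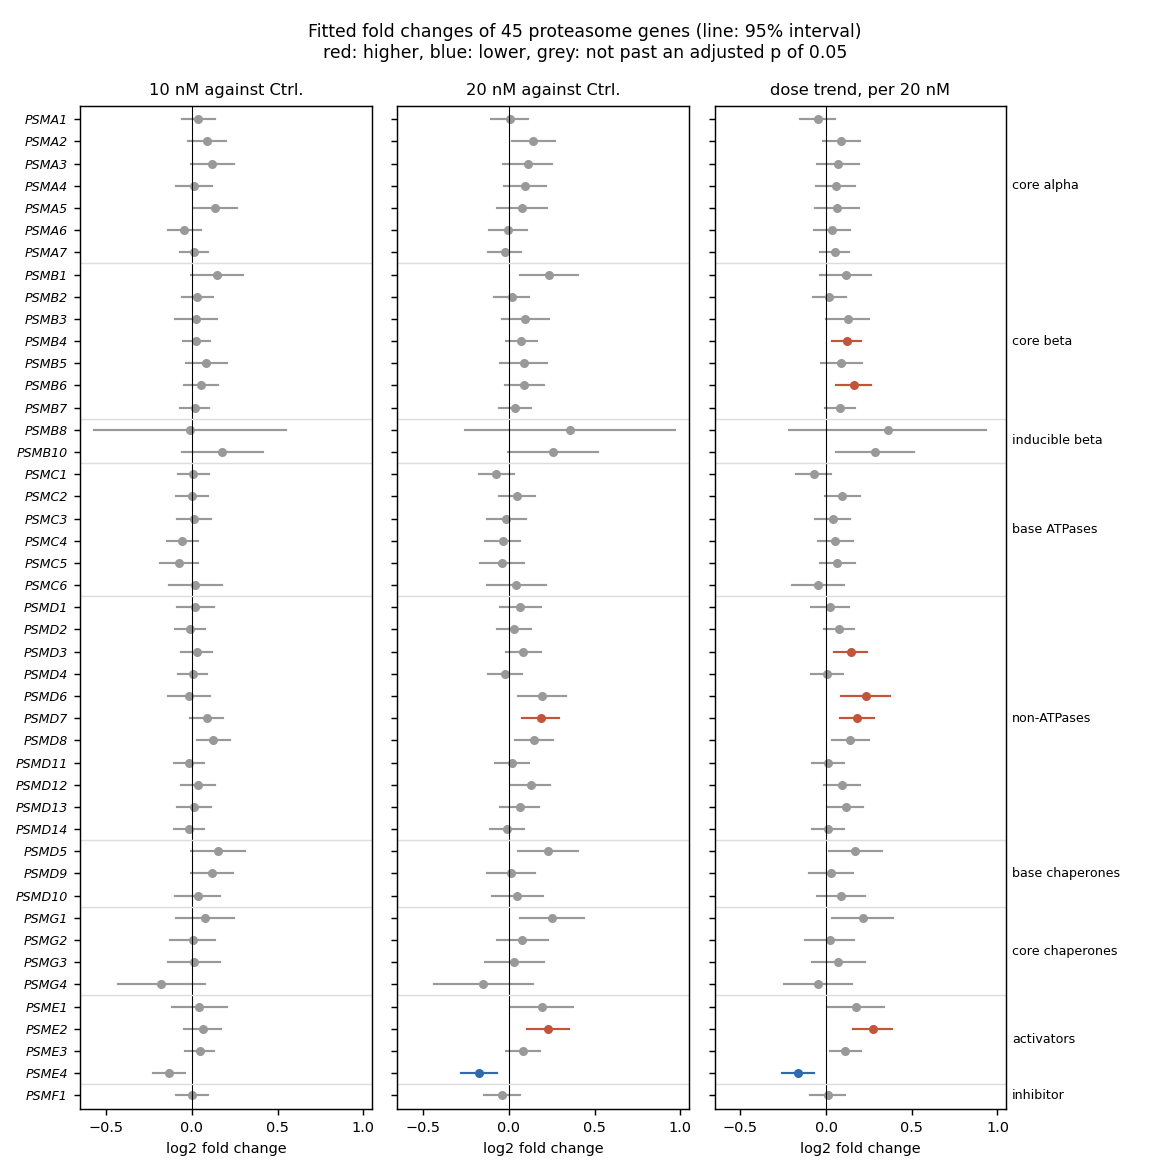
Fitted log2 fold changes of 45 proteasome genes with 95% intervals, grouped by class, for 10 nM and 20 nM against Ctrl. and for the dose trend per 20 nM; red genes passed the threshold upwards, blue downwards. PSME2 and PSMD7 are red and PSME4 blue at 20 nM, no gene is coloured at 10 nM, and PSMB8 has the widest interval.

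The alpha subunits form the outer rings of the core and its gate. Of the 7, none passed in any comparison, and their log2 fold changes at 20 nM ran from -0.03 (PSMA7) to 0.14 (PSMA2), with a median of 0.08. Of the 7 constitutive beta subunits, none passed at 10 or 20 nM in edgeR's quasi-likelihood test, 2 rose in the dose trend, and all 7 had fitted values above 0 in the comparisons of 10 and 20 nM with Ctrl. PSMB4 is a structural subunit of the beta ring. Its CPM was 285, 287, and 299 in Ctrl., 289, 310 and 313 at 10 nM, with 304, 320 and 399 at 20 nM. The 20 nM libraries were all above Ctrl., with replicate 3 the highest by far, and the dose trend was 0.12 (SE 0.04, adjusted p = 0.0469). PSMB1, another structural beta subunit, had 102, 106 and 108 CPM in Ctrl. against 122, 122 and 75.2 at 20 nM. Its replicate 3 was below every other library, and its fitted fold change at 20 nM of 0.23 (SE 0.08, adjusted p = 0.0693) did not pass, though DESeq2 (adjusted p = 0.0447) and the likelihood-ratio test (0.0374) called PSMB1. Over 20 alternative fits, 6 called it, and its value ran from -0.003 to 0.29, with adjusted p up to 0.991. The mean CPM of PSMB1 was 105 in Ctrl. and 106 at 20 nM.

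The catalytic beta subunits are PSMB6, PSMB7 and PSMB5, which carry the caspase-like, trypsin-like and chymotrypsin-like activity. PSMB6 had 72.2, 74.1 and 77.6 CPM in Ctrl., 78.4, 75.6 and 85.8 at 10 nM, with 79.6, 83.1 and 108 at 20 nM. The 20 nM libraries were again all above Ctrl. and the 10 nM libraries overlapped with both, and PSMB6 rose in the dose trend by a log2 of 0.16 (SE 0.05, adjusted p = 0.0305) without passing at 20 nM (0.09, adjusted p = 0.294). The trend calls of PSMB4 and PSMB6 were lost without Ctrl. replicate 1 (adjusted p = 0.183 and 0.188), 20 nM replicate 2 (0.225 and 0.154) or 20 nM replicate 3 (0.188 and 0.137), among others. PSMB5 had 125, 126 and 128 CPM in Ctrl., 126, 135 and 147 at 10 nM, with 129, 145 and 146 at 20 nM. The highest 10 nM and 20 nM libraries of PSMB5 were alike, and no comparison passed (dose trend 0.09, SE 0.06, adjusted p = 0.295). PSMB7 had 112, 113 and 114 CPM in Ctrl., 115, 115 and 121 at 10 nM, with 115, 121 and 144 at 20 nM. Both mimic groups of PSMB7 lay above Ctrl., though the 20 nM value was 0.03 (SE 0.04, adjusted p = 0.664).

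The inducible subunits PSMB8 and PSMB10 take the places of PSMB5 and PSMB7 in the immunoproteasome, which interferon induces. PSMB10 had 10.1, 10.5 and 9.46 CPM in Ctrl., 11, 13.1 and 10.9 at 10 nM, with 11, 13.5 and 16.2 at 20 nM. All 6 mimic libraries were above the 3 Ctrl. libraries, but the fitted changes did not pass (20 nM 0.26, SE 0.12, adjusted p = 0.191, dose trend 0.29, SE 0.11, adjusted p = 0.0834). PSMB8 had 1.80, 2.59 and 1.86 CPM in Ctrl., 2.09, 2.65 and 1.49 at 10 nM, with 2.34, 2.97 and 3.16 at 20 nM. The groups of PSMB8 overlapped, and at this depth its 95% interval at 20 nM ran from -0.26 to 0.97.

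The ATPases of the base, PSMC1 to PSMC6, unfold substrates and open the core. None of the 6 passed in any comparison, and their fitted values at 20 nM ran from -0.07 (PSMC1) to 0.04 (PSMC2), with a median of -0.03. PSMC5, the highest of them in CPM, had 215, 199 and 221 in Ctrl., 203, 204 and 222 at 10 nM, with 214, 208 and 317 at 20 nM. Apart from the last library, the PSMC5 values of the groups overlapped, and the fitted change at 20 nM was -0.04 (SE 0.06, adjusted p = 0.734).

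Among the 11 non-ATPase subunits of the base and lid, PSMD7 rose at 20 nM and PSMD3, PSMD6 and PSMD7 rose in the dose trend. PSMD7 (ENSG00000103035, chr16:74296814-74306288, plus strand, GENCODE 44 on GRCh38.p14, as for the positions below) is the lid subunit that pairs with the deubiquitinase PSMD14. Its CPM was 80.9, 86.7 and 81.3 in Ctrl., 85.7, 90.5 and 88.2 at 10 nM, with 94.2, 94.9 and 94.6 at 20 nM. The 3 libraries at 20 nM lay close together above all others, and the fold change was 1.14 (log2 0.19, SE 0.05, adjusted p = 0.0267). The PSMD7 call was lost without surrogate variables (adjusted p = 0.074) and without Ctrl. replicate 1 (0.0835), Ctrl. replicate 3 (0.0921), 20 nM replicate 1 (0.0883) or 20 nM replicate 2 (0.135). PSMD14 itself had a value of -0.01 (SE 0.05). For PSMD6 (ENSG00000163636, chr3:64010550-64024010, minus strand), a lid subunit, Ctrl. had 55.2, 60.3 and 58.3 CPM, 10 nM had 57.3, 59.2 and 57.3 and 20 nM had 70.1, 62.6 and 75.9. The 10 nM libraries lay within the Ctrl. range and the 20 nM libraries above it. PSMD6 rose in the dose trend (0.23, SE 0.07, adjusted p = 0.0283), while its steps from Ctrl. to 20 nM (0.19, adjusted p = 0.0634) and from 10 to 20 nM (0.21, SE 0.06, adjusted p = 0.0958) did not pass. For PSMD3 (ENSG00000108344, chr17:39980807-39997959, plus strand), a further lid subunit, the values were 173, 180 and 181 CPM in Ctrl., 187, 185 and 186 at 10 nM, with 190, 192 and 247 at 20 nM. The 3 groups of PSMD3 did not overlap, and the dose trend was 0.14 (SE 0.04, adjusted p = 0.0378). Leaving out Ctrl. replicate 1, Ctrl. replicate 3, 10 nM replicate 2 or 20 nM replicate 2 ended the trend call of both PSMD3 (adjusted p 0.0741 to 0.184) and PSMD6 (0.0592 to 0.131), as did 20 nM replicate 3 for PSMD3 (0.114) and 20 nM replicate 1 for PSMD6 (0.0937). PSMD4, a receptor for ubiquitin chains, and PSMD2, the largest contributor in CPM of this class, had values of -0.02 (SE 0.05) and 0.03 (SE 0.05) at 20 nM.

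The assembly chaperones did not pass in any comparison. PSMD5, PSMD9 and PSMD10 hold base ATPases before they join, and had values at 20 nM of 0.23 (SE 0.08, adjusted p = 0.083), 0.01 and 0.05. PSMG1 and PSMG2, the pair that builds the alpha ring, had values of 0.25 (SE 0.09, adjusted p = 0.0733) and 0.08, and PSMG3 and PSMG4, which act with them, of 0.03 and -0.15. PSMD9 and PSMD10 were above Ctrl. in every 10 nM library, by 0.12 and 0.04 in the fit, and not in every 20 nM library.

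**Figure D3:**
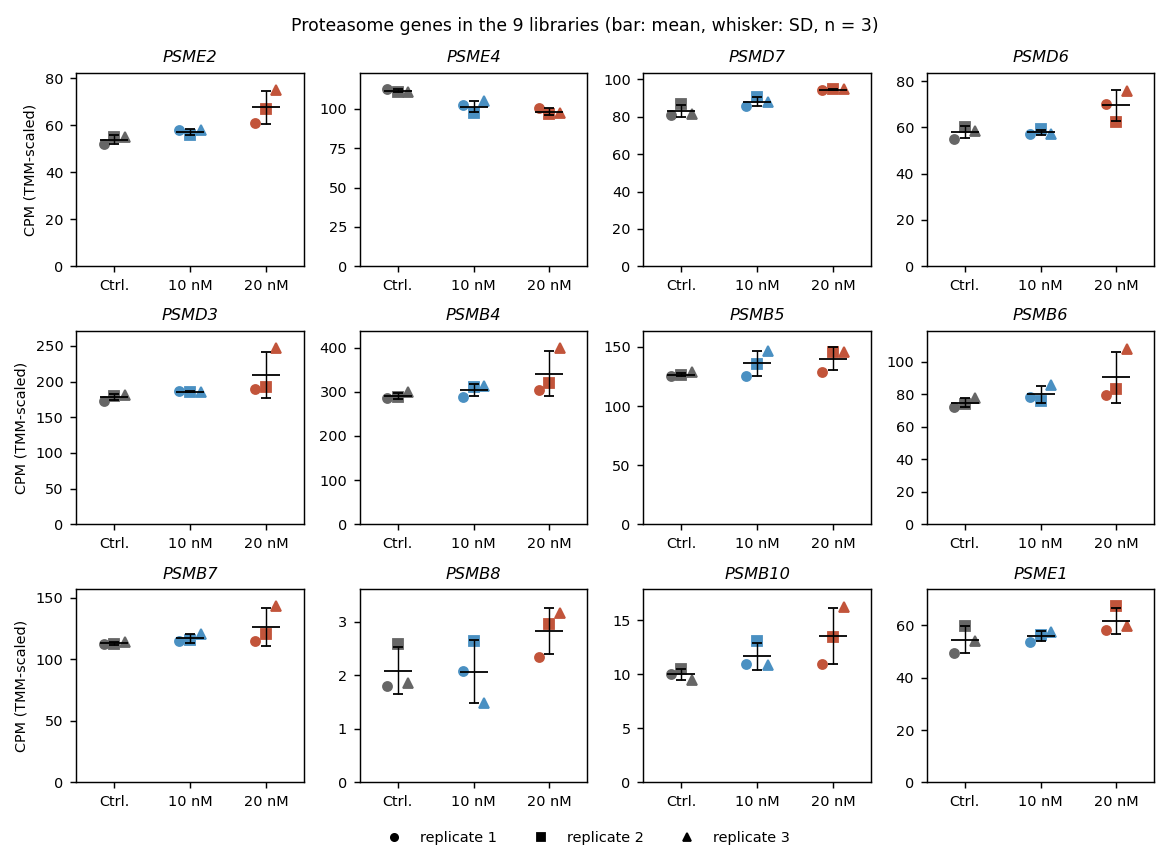
CPM of 12 proteasome genes in the 9 libraries by group, with the mean and SD (n = 3) and axes that start at 0. PSME2 and PSMD7 lie above and PSME4 below Ctrl. in each 20 nM library. Replicate 3 at 20 nM is the highest point for PSME2, PSMD3, PSMD6, PSMB4, PSMB6, PSMB7, PSMB8 and PSMB10.

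Among the activators, PSME2 rose and PSME4 fell. PSME2 (ENSG00000284889 in the table, placed by symbol at chr14:24143362-24147570, minus strand) forms with PSME1 the interferon-inducible cap that opens the core without ATP. It had 51.9, 54.8 and 55.0 CPM in Ctrl., 58.0, 55.7 and 57.8 at 10 nM, with 60.8, 67.1 and 74.9 at 20 nM. The 3 groups of PSME2 did not overlap and stood in the order of dose. The fold change at 20 nM was 1.17 (log2 0.23, SE 0.06, adjusted p = 0.0166), and the dose trend 0.27 (SE 0.05, adjusted p = 0.00317), while 10 nM (0.06, adjusted p = 0.61) and the step from 10 to 20 nM (0.17, SE 0.05, adjusted p = 0.129) did not pass. Its call at 20 nM was lost without Ctrl. replicate 1 (adjusted p = 0.0615) and without 20 nM replicate 2 (0.131). PSME1, the partner of PSME2, had 49.6, 59.7 and 54.1 CPM in Ctrl., 53.8, 56.5 and 57.5 at 10 nM, with 58.2, 67.3 and 59.7 at 20 nM. The groups of PSME1 overlapped, and 20 nM gave 0.19 (SE 0.08, adjusted p = 0.152).

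PSME4 (ENSG00000068878, chr2:53864069-53970993, minus strand), a large nuclear activator known for its part in histone degradation, was the only proteasome gene that fell. Its CPM was 113, 111 and 111 in Ctrl., 102, 97.4 and 105 at 10 nM, with 101, 96.8 and 97.2 at 20 nM. All 6 mimic libraries were below all Ctrl. libraries, while the 10 nM and 20 nM groups overlapped. At 20 nM PSME4 was at 0.887 of its Ctrl. level (log2 -0.17, SE 0.05, adjusted p = 0.0328), at 10 nM at 0.912 (-0.13, SE 0.04, adjusted p = 0.18), and the step between the concentrations was -0.04 (SE 0.05). The PSME4 call was lost without surrogate variables (adjusted p = 0.0789), with 2 of them (0.0566), and when any Ctrl. replicate (0.0557 to 0.0724), 20 nM replicate 1 (0.0513) or 20 nM replicate 2 (0.15) was left out, with log2 fold changes from -0.21 to -0.15. PSME3, a nuclear activator of its own, had 201, 202 and 214 CPM in Ctrl., 211, 222 and 216 at 10 nM, with 217, 225 and 261 at 20 nM. The 20 nM libraries of PSME3 were all above Ctrl., and its values of 0.08 at 20 nM (SE 0.05, adjusted p = 0.274) and 0.11 in the dose trend (SE 0.04, adjusted p = 0.0829) did not pass. The inhibitor PSMF1, which binds the core and keeps it from its activators, stayed at 89.3 to 93.2 CPM in Ctrl. and had 89.1, 90.2 and 109 at 20 nM.

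The promoters of the 3 genes called at 20 nM are shown next, from 250 bases before to 50 bases after the start site (RefSeq, GRCh38.p14), since proteasome genes are known to respond together to NFE2L1 through the antioxidant response element. Capitals mark its core TGACNNNGC and the CCAAT box, each searched on both strands.
PSME2, chr14:24146561-24146860, minus strand: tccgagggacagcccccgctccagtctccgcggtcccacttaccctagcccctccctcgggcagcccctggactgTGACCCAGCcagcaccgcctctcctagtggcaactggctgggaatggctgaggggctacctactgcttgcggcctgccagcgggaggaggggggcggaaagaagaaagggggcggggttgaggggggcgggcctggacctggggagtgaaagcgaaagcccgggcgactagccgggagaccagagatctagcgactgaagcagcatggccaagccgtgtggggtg
PSME4, chr2:53970944-53971243, minus strand: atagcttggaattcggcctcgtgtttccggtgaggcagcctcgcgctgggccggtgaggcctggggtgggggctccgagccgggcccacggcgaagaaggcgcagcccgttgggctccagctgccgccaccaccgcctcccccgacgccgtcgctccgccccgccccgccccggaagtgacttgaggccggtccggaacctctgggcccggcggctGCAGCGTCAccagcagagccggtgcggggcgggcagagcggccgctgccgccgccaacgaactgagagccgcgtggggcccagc
PSMD7, chr16:74296564-74296863, plus strand: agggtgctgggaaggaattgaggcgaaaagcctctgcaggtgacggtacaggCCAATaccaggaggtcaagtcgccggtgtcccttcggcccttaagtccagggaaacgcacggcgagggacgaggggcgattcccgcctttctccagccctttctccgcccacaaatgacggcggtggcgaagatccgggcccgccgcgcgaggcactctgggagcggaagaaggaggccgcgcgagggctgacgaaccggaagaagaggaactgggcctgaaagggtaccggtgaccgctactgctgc
The core TGACNNNGC lies at position -175 in PSME2 and, on the opposite strand, at position -34 in PSME4, so that 1 gene that rose and the gene that fell both hold it. CCAAT lies at position -198 in PSMD7. The table of promoters held 48 entries for 39 of the 45 genes, and TGACNNNGC was in 14 of them (29.2%), against 13.3% of all 35116 promoters of that length and 14.2% of the 16445 of genes in the count table. CCAAT was in 18 of the 48 (37.5%), against 34.6% of all. Among the 32 entries for constitutive subunits of the core and the regulatory particle, 7 (21.9%) held TGACNNNGC and 15 (46.9%) CCAAT. These shares are a description without a test.

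Among 36 genes that work with the proteasome but have other names, 1 rose and 1 fell at 20 nM, none passed at 10 nM or between the concentrations, and 5 rose and 2 fell in the dose trend. The shares of all genes were 7.8% and 6.08% at 20 nM and 9.84% and 7.69% in the dose trend, as above. UCHL5, a deubiquitinase of the regulatory particle, rose by 0.24 (SE 0.06, adjusted p = 0.0181), with 52.7, 57.6 and 56.8 CPM in Ctrl. and 66.9, 63.8 and 55.1 at 20 nM, so that replicate 3 lay within the Ctrl. range. The UCHL5 call was lost with the replicate block (0.15, adjusted p = 0.217), without surrogate variables (0.25) and without 20 nM replicate 1 (0.166) or 20 nM replicate 2 (0.0871). DDI2, the protease that activates NFE2L1, fell by 0.19 on the log2 scale (SE 0.05, adjusted p = 0.0219). It had 72.4, 69.1 and 70.2 CPM in Ctrl., 66.3, 67.2 and 64.3 at 10 nM, with 62.6, 60.1 and 55.1 at 20 nM, and all 6 mimic libraries were below all Ctrl. libraries. The DDI2 call was lost without Ctrl. replicate 1 (adjusted p = 0.0658), Ctrl. replicate 3 (0.0551) or 20 nM replicate 2 (0.104). NFE2L1 itself had a value of 0.02 (SE 0.05), the core assembly factor POMP of -0.01 (SE 0.05), the ubiquitin receptor ADRM1 of 0.00 (SE 0.06) and the lid subunit SEM1 of -0.06 (SE 0.08). None of the 6 antigen processing genes, TAP1, TAP2, TAPBP, B2M, NLRC5 and IRF1, passed at 20 nM, and TAP2 passed upwards in the dose trend (0.25, adjusted p = 0.0362) but not by DESeq2 (0.0879), with 1 surrogate variable (0.0693) or without any of Ctrl. replicates 1 and 3, 10 nM replicates 1 and 2 and 20 nM replicates 2 and 3 (0.0684 to 0.364).

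The 20 nM replicate 3 library differed from the other libraries in the proteasome genes as it did overall. Over the 44 genes other than PSMB8, log2 levels relative to the Ctrl. mean ran from -0.48 (PSMB1) to 0.70 (PSMB10) in that library, and 28 of 44 were more than 0.2 from the Ctrl. mean, against 2 and 9 in 20 nM replicates 1 and 2 and 0 to 4 in the others. The median SD between replicates of the proteasome genes, on the log2 scale, was 0.05 for Ctrl., 0.05 for 10 nM and 0.16 for 20 nM. Across the 44 genes, which are not independent, the deviation in that library had a correlation of 0.61 with the GC content of the reference transcript, as a description, and across 10163 genes of at least 10 CPM the correlation was 0.59. In 20 nM replicates 1 and 2 the values over the 44 genes were -0.17 and 0.21, and in 10 nM replicate 3 it was 0.53. The part of GC content in the fold changes was not tested.

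**Figure D4:**
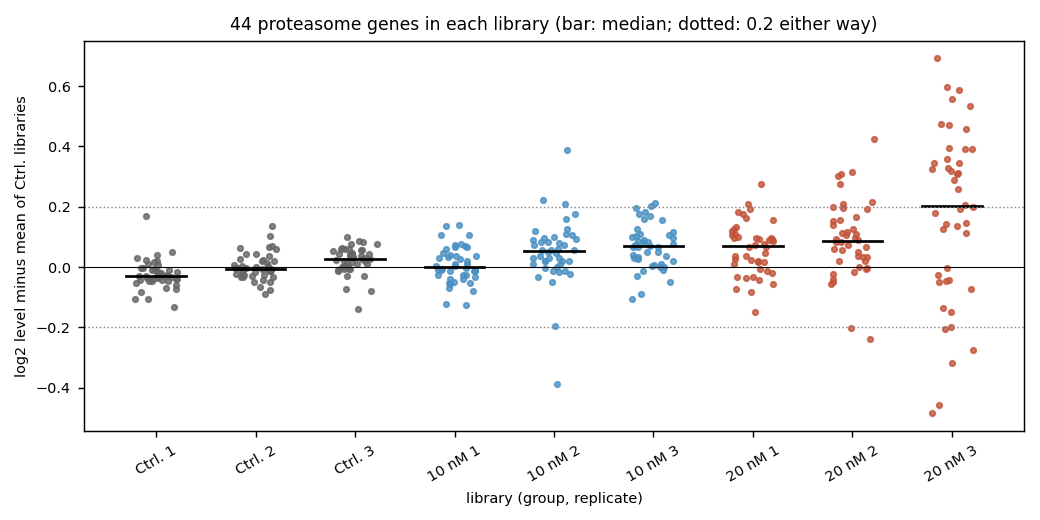
Log2 level of 44 proteasome genes (all but PSMB8, the lowest) in each library minus the mean of the 3 Ctrl. libraries, with the median as a bar and dotted lines at 0.2 either way. In 20 nM replicate 3, 28 of 44 genes lie beyond the lines, against 0 to 9 in the other libraries.

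**Figure D5:**
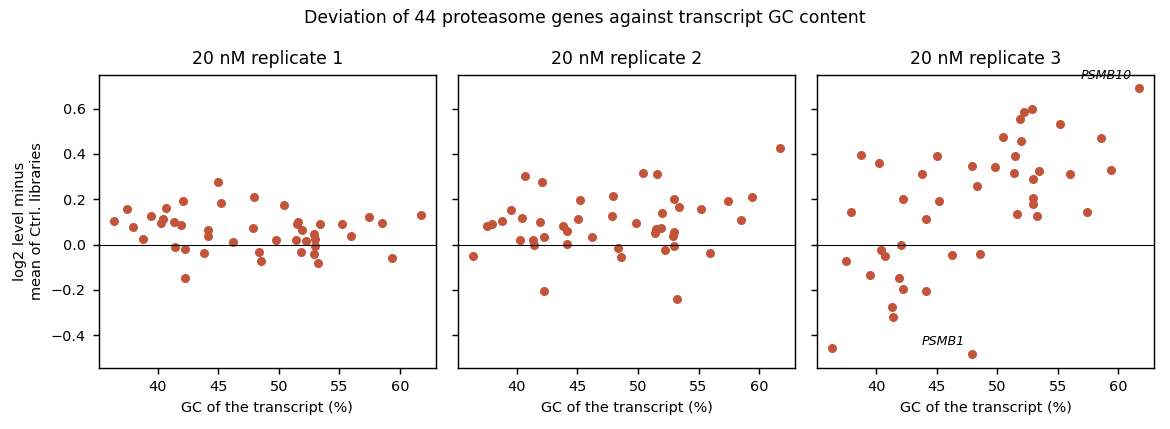
The same log2 differences of 44 genes against the GC content of the reference transcript, in percent, for the 3 libraries of the 20 nM group. The correlations across genes are -0.17, 0.21 and 0.61 for replicates 1, 2 and 3.

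Without 20 nM replicate 3 and with the surrogate variables estimated anew, 16 of 45 genes (35.6%) passed at 20 nM, beside 29.2% of all genes. Of the 16, 15 were higher and 1 lower. Upwards alone, the shares were 33.3% of the proteasome genes and 15.4% of all genes, a difference that was not tested. Besides the genes named in the next sentence the 16 were PSMA2, PSMB3, PSMB4, PSMB5, PSMB6, PSMD3, PSME1, PSME3 and PSMG1, with log2 fold changes from 0.10 (PSME3) to 0.23 (PSMG1), and the 20 nM group then held 2 libraries. With the number of surrogate variables held, 7 passed: PSMB1 (0.21), PSMD5 (0.23), PSMD6 (0.20), PSMD7 (0.19), PSMD8 (0.15) and PSME2 (0.25) higher and PSME4 (-0.18) lower, beside 17.8% of all genes. PSME2, PSMD7 and PSME4 were thus as large without that library, with adjusted p values of 0.0113, 0.0191 and 0.0165. At 10 nM, 2 of 45 passed when it was left out and the variables estimated anew, PSMD8 higher (0.11, adjusted p = 0.0262) and PSME4 lower (-0.13, adjusted p = 0.0213), beside 8.82% of all genes, and 0 with their number held. From 10 to 20 nM, PSMB1, PSMD6 and PSME1 passed upwards with the variables estimated anew, 6.67% beside 10.0% of all genes, and 0 of 45 with their number held, beside 3.09%. PSMB4, PSMB6 and PSMD3 were not past the threshold in the dose trend without it, where PSMB1, PSMD5 and PSMD8 were.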

How the data were processed

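The authors mapped reads with Salmon (version not given in the sources used here) to GRCh38.p13, with Ensembl annotation, and summed them to genes by symbol. Their deposited table holds estimated counts, which need not be whole (88.8% of values were not). They also deposited log2 values corrected for surrogate variables and tables of comparisons with log2 fold changes, p-values and adjusted p-values, none of which were used. Whether strand was used is not stated, so reads of pseudogenes, near-identical copies and antisense genes can be shared. For PSMB3, PSMB8, PSMC4, PSME1 and PSME2 the identifier in the table is not that of GENCODE 44, and they were matched by symbol.

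After rounding to whole numbers, the estimated counts were tested in edgeR 4.0.16 (R 4.3.3) with TMM scaling and the quasi-likelihood test over all 9 libraries. filterByExpr removed 0 genes. Surrogate variables came from sva 3.50.0 on log2 CPM (prior count 2), 1 for the group model and 2 for the dose model, by num.sv with a random seed of 1; over 10 seeds the dose model got 1 to 3. P-values were adjusted by Benjamini-Hochberg over 14943 genes, with a threshold of 0.05. CPM are TMM-scaled but not corrected for surrogate variables, so fold changes can differ from ratios of CPM. Intervals of fold changes are at 95% from the fit. DESeq2 1.42.0, a likelihood-ratio test, other scalings, filters, numbers of surrogate variables, a replicate block and leaving out each library were tried. Values in all libraries are given for genes past the threshold, catalytic and inducible beta subunits and activators, and the values of PSMB1 and PSMC5 were added after they were seen. Residual correlations of same-numbered libraries were 0.142 to 0.185 for 10 nM with Ctrl. and 0.107 to 0.116 for 20 nM with Ctrl. For 10 nM with 20 nM they were 0.174 and 0.176 in replicates 1 and 3 and 0.0288 in replicate 2. Only 20 nM replicate 2 was nearer to another number, 10 nM replicate 1 (0.0321). The replicate numbers thus pair the libraries in all but this comparison. The pairing comes from the data, since the labels do not say what a number marks. The genes and lists were chosen with earlier results of these data known. 1 neuroblastoma marker of the list is not reported here.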

Additional observations from a re-analysis of the deposited data

How the results depend on the processing

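Shares in brackets in the next sentences are of all genes in the same fit. The number of proteasome genes past the threshold at 20 nM was 3 (13.9%), with RLE factors (13.9%) or library totals (13.6%) as well. Without surrogate variables 1 passed (6.38%), and 5 did by the likelihood-ratio test (17.1%) or with the replicate block (13.6%). When 20 nM replicate 3 was left out with the number of surrogate variables held, 7 passed (17.8%), an alternative chosen after seeing the data. Leaving out 1 library gave 0 to 2 at 10 nM, with 2 without 20 nM replicate 3 (8.82%). At 20 nM it gave 0 to 16, with 0 without Ctrl. replicate 1 (10.1%) and 16 without 20 nM replicate 3 (29.2%). Without Ctrl. replicate 3 (9.93%), 20 nM replicate 1 (8.84%) or 20 nM replicate 2 (7.19%), 1 passed. From 10 to 20 nM it gave 0 to 3, with 3 without 20 nM replicate 3 (10.0%), and the likelihood-ratio test called 1 (5.07%). In the dose trend it gave 0 to 13, with 0 without 20 nM replicate 2 and 13 without 20 nM replicate 1. There, 2 passed without Ctrl. replicate 1 (11.8%) or Ctrl. replicate 3 (12.2%), and 3 without 10 nM replicate 2 (15.9%). The share of all genes moved with these counts, to 9.16% in the dose trend without 20 nM replicate 2 and to 22.2% without 20 nM replicate 1, where that of the proteasome genes was 28.9%. Upwards alone, the shares without 20 nM replicate 1 were 26.7% of the proteasome genes and 11.3% of all genes, a difference that was not tested. The dose trend called 7 (beside 17.5% of all genes), or 3 with library totals (beside 17.4%) and 1 without surrogate variables (beside 8.27%). With 3 surrogate variables it called 10 (22.2%, beside 21.98% of all genes), also chosen after seeing the data. PSME2 passed at 20 nM in 18 of 20 alternatives (adjusted p 0.00132 to 0.131), PSMD7 in 15 (0.0017 to 0.135) and PSME4 in 13 (0.00188 to 0.15), each with the same sign throughout. Of these alternatives, no filter and 1 surrogate variable repeat the main fit at 20 nM and could not differ from it. PSMB4, PSMB6 and PSMD3 lost their dose trend in 13, 9 and 9 of 21. There, no filter and 2 surrogate variables repeat the main fit, and both fits without 20 nM replicate 3 are the same. The median log2 fold change without surrogate variables was 0.14 at 20 nM, 0.10 from 10 to 20 nM and 0.14 in the dose trend, and with the replicate block 0.14, 0.10 and 0.14 (0.0431 at 10 nM); in the dose trend, leaving out 1 library gave 0.057 to 0.13. No value of a proteasome gene that was called in the main fit changed sign. Some values called only in alternative fits did, such as that of PSMB1 at 20 nM (-0.003 to 0.29). The numbers pair all libraries except 20 nM replicate 2 with 10 nM. In the dose trend, the replicate block ended the calls of PSMB4 (adjusted p = 0.0506), PSMD3 (0.0658) and PSMD6 (0.0522) and added PSMB3 (0.0432) and PSMB10 (0.0409). Of the proteasome genes, the block changed no call at 10 nM or from 10 to 20 nM, and at 20 nM only those of PSMB6 and PSMD6. A library was closest to its own number in 17 of 18 comparisons with another group. The causes were not tested.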
